A study of Mus musculus with 3 samples.

Results

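Mouse chromosomes 7, 11, 17 and 19 were examined as part of the autosomal background of an Xist pulldown. The members are all windows of these 4 autosomes that carry a value in both deposited profiles: 15092 of the 94429 windows with a value in the whole genome. Chromosome 7 gave 4819 windows, chromosome 11 gave 4699, chromosome 17 gave 3437 and chromosome 19 gave 2137. They were chosen by chromosome and by the authors' flag, which had to be 0, and not by their enrichment. The other 15 autosomes, with 75350 windows, served as the comparison, and the 3987 windows of the X gave the level of the target chromosome.

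Xist is the long noncoding RNA that spreads over 1 X chromosome of female cells, recruits silencing factors and starts X inactivation. Its known site of action is the chromosome that transcribes it, so DNA of autosomes that comes down with Xist is usually read as the background of the assay. In RNA antisense purification (RAP), cells are crosslinked and lysed, the RNA is fished out with biotinylated antisense probes, and the DNA held to it is sequenced. Gene-dense parts of mouse autosomes are known to be GC-rich, open and early replicating. Mouse autosomes have their centromere at one end, where positions start.

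The cells were female mouse embryonic stem cells labelled as strain 129SvJae, grown in 2i and LIF, which keep them undifferentiated. They were placed in medium for epiblast-like cells (EpiLCs) for 2 days in one group and for 4 days in the other, with no other treatment named in the labels. Each day has 1 Xist pulldown library, so no value below has a replicate error and no difference has a test. The labels also list 1 input DNA library from day 2, whose values were not used on their own. A profile averages over all cells and both alleles of an autosome, and the files hold no expression values with which the cell type could be checked.

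Values are the authors' enrichment ratios in 100 kb windows spaced 25 kb apart, deposited with 2 decimals. Positions below are those of the 25 kb row at the centre of a window, in mm9, counted from 1. Rows with a flag of 1 hold no value, which was the case for 2148 of the 17240 rows of the 4 chromosomes. Flagged rows made up 21.0% of chromosome 7, 12.9% of chromosome 19, 9.81% of chromosome 17 and 3.59% of chromosome 11. These are the highest and the lowest shares among the 19 autosomes for chromosomes 7 and 11. Read counts are not part of the files, and the depth behind a ratio is unknown. Windows overlap, and they are not replicates.

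The name gene-dense was checked against the number of protein-coding genes in RefSeq (assembly GRCm38.p6) over the span of its genes on each chromosome. The 4 chromosomes ranked 1 to 4 among 19 autosomes. Chromosome 7 had 13.97 genes per Mb, chromosome 11 had 13.2, chromosome 19 had 12.1 and chromosome 17 had 11.2, ahead of chromosome 2 with 9.96. That table is of another build than the profiles, so no gene was assigned to a window and no sequence is shown.

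The first comparison asked how high the background of the 4 chromosomes stood beside that of the other autosomes. It was higher on both days, with wide overlap of the windows. On day 2 the median enrichment was 0.46 (quartiles 0.28 and 0.71) on the 4 chromosomes and 0.36 (0.20 and 0.61) on the other 15, a ratio of 1.28. On day 4 it was 0.35 (0.24 and 0.50) against 0.28 (0.19 and 0.42), a ratio of 1.25. The quartile ranges overlapped widely, and 63.2% of the windows on day 2 and 63.9% on day 4 lay above the median of the other 15.

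The 4 chromosomes did not stand together. Chromosome 19 had the highest median of the 19 autosomes on both days, at 0.60 on day 2 and 0.38 on day 4. Chromosome 11 followed on day 2 with 0.48, and chromosome 7 on day 4 with 0.37. Chromosome 9 was level with these (0.48 on day 2, 0.37 on day 4), although it is not among the 4 and ranks 6 in gene density. The medians of chromosome 17, 0.39 and 0.30, are 1.08 and 1.07 times those of the other 15 autosomes. Its median equalled that of chromosomes 12, 13 and 18 on day 2. The medians of the other 15 ran from 0.27 to 0.48 on day 2 and from 0.23 to 0.37 on day 4. Chromosomes 7, 11 and 17 lay within this range on both days, and chromosome 19 above it.

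**Figure D1:**
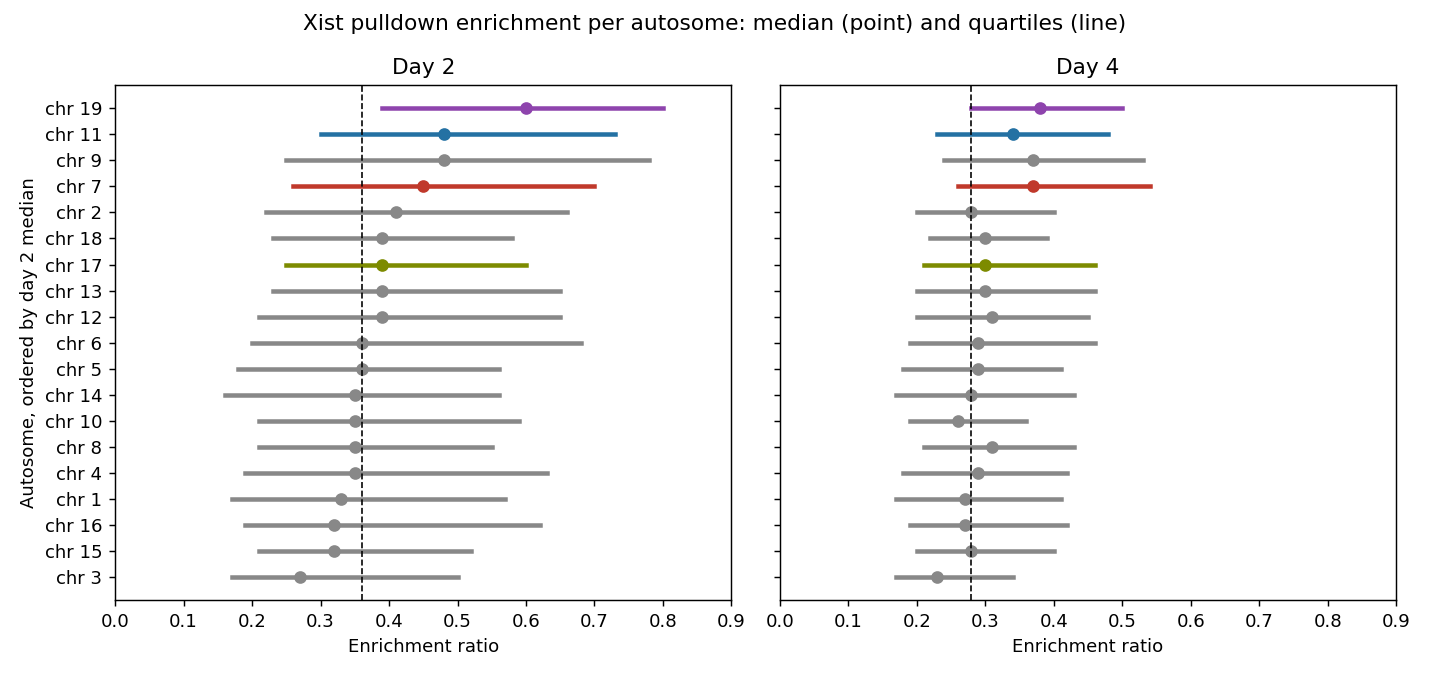
Median (point) and quartiles (line) of the enrichment ratio per autosome on day 2 and day 4, with chromosomes 7, 11, 17 and 19 in colour and the median of the other 15 autosomes as a dashed line (0.36 and 0.28). Chromosome 19 is highest on both days, and chromosome 17 lies among the grey chromosomes.

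The low end of the pooled distribution differed more than the high end. A window was called high above the 90th percentile of all autosomal windows of its day (0.91 on day 2, 0.60 on day 4) and low below the 10th percentile (0.14 on both days). On day 2, 1835 of the 15092 windows (12.2%) were high, against 9.84% of all autosomal windows, and 563 (3.73%) were low, against 9.52%. On day 4, 2004 (13.3%) were high, against 9.59%, and again 563 (3.73%) were low, against 8.46%. Chromosome 19 had 0 low windows of 2137 on day 2 and 1 on day 4. Its lowest values were 0.14 and 0.12. On chromosome 17, 6.9% of windows were low on day 2 and 7.9% on day 4, the latter near the share of all autosomal windows. Chromosome 18, which is not among the 4, had 4.5% and 3.9%, close to the pooled share.

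High windows were spread unevenly over the 4 chromosomes. On day 2 they made up 16.9% of chromosome 19, 13.2% of chromosome 11, 12.7% of chromosome 7 and 6.98% of chromosome 17, which ranked 14 of 19. On day 4 chromosome 7 led with 16.8%, followed by chromosome 11 with 12.4%, chromosome 17 with 11.4% and chromosome 19 with 10.2%. Chromosome 9 had larger shares than any of these, 18.3% and 18.1%. On day 4 chromosome 19 thus had the highest median and only a middling share of high windows. Its quartiles were the closest of the 4, 2.05-fold apart on day 2 and 1.79-fold on day 4. The pooled windows of the other 15 autosomes had 3.05-fold and 2.21-fold. Chromosome 18, which is not among the 4, had 2.52-fold and 1.77-fold, so it was closer on day 4.

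This background stayed far below the X. The X median was 23.6 times that of the 4 chromosomes on day 2 and 47.4 times on day 4. For chromosome 19 the factors were 18.1 and 43.6, the smallest of the 4. The lowest X window had 1.07 on day 2, and 1029 windows of the 4 chromosomes (6.82%) exceeded it, against 5.75% of all autosomal windows: 376 on chromosome 7, 359 on chromosome 11, 186 on chromosome 19 and 108 on chromosome 17. On day 4 the lowest X window had 1.39, and 27 windows (0.179%) exceeded it, against 0.262% of all autosomal windows. Of these, 19 were on chromosome 7 and 8 on chromosome 11. All 19 on chromosome 7 lay beyond 145 Mb.

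The second comparison followed the ratio along each chromosome. The level varied along each chromosome. Bins of 5 Mb were used if at least 100 of 200 rows carried a value, which left 78 bins. Pooled over the 4 chromosomes, bin medians ran from 0.15 to 1.38 on day 2, a 9.2-fold range. On day 4 they ran from 0.13 to 1.03, a 7.92-fold range. Over 387 such bins of the other 15 autosomes the ranges were 12.3-fold and 12.25-fold. Within single chromosomes the range was widest on chromosome 7 on day 2 (7.26-fold). It was narrowest on chromosome 19 (2.77-fold on day 2, 2.12-fold on day 4). Chromosomes 7, 11 and 19 were lower in their first 20 Mb with values than in their last 20 Mb, and chromosome 17 ran the other way.

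**Figure D2:**
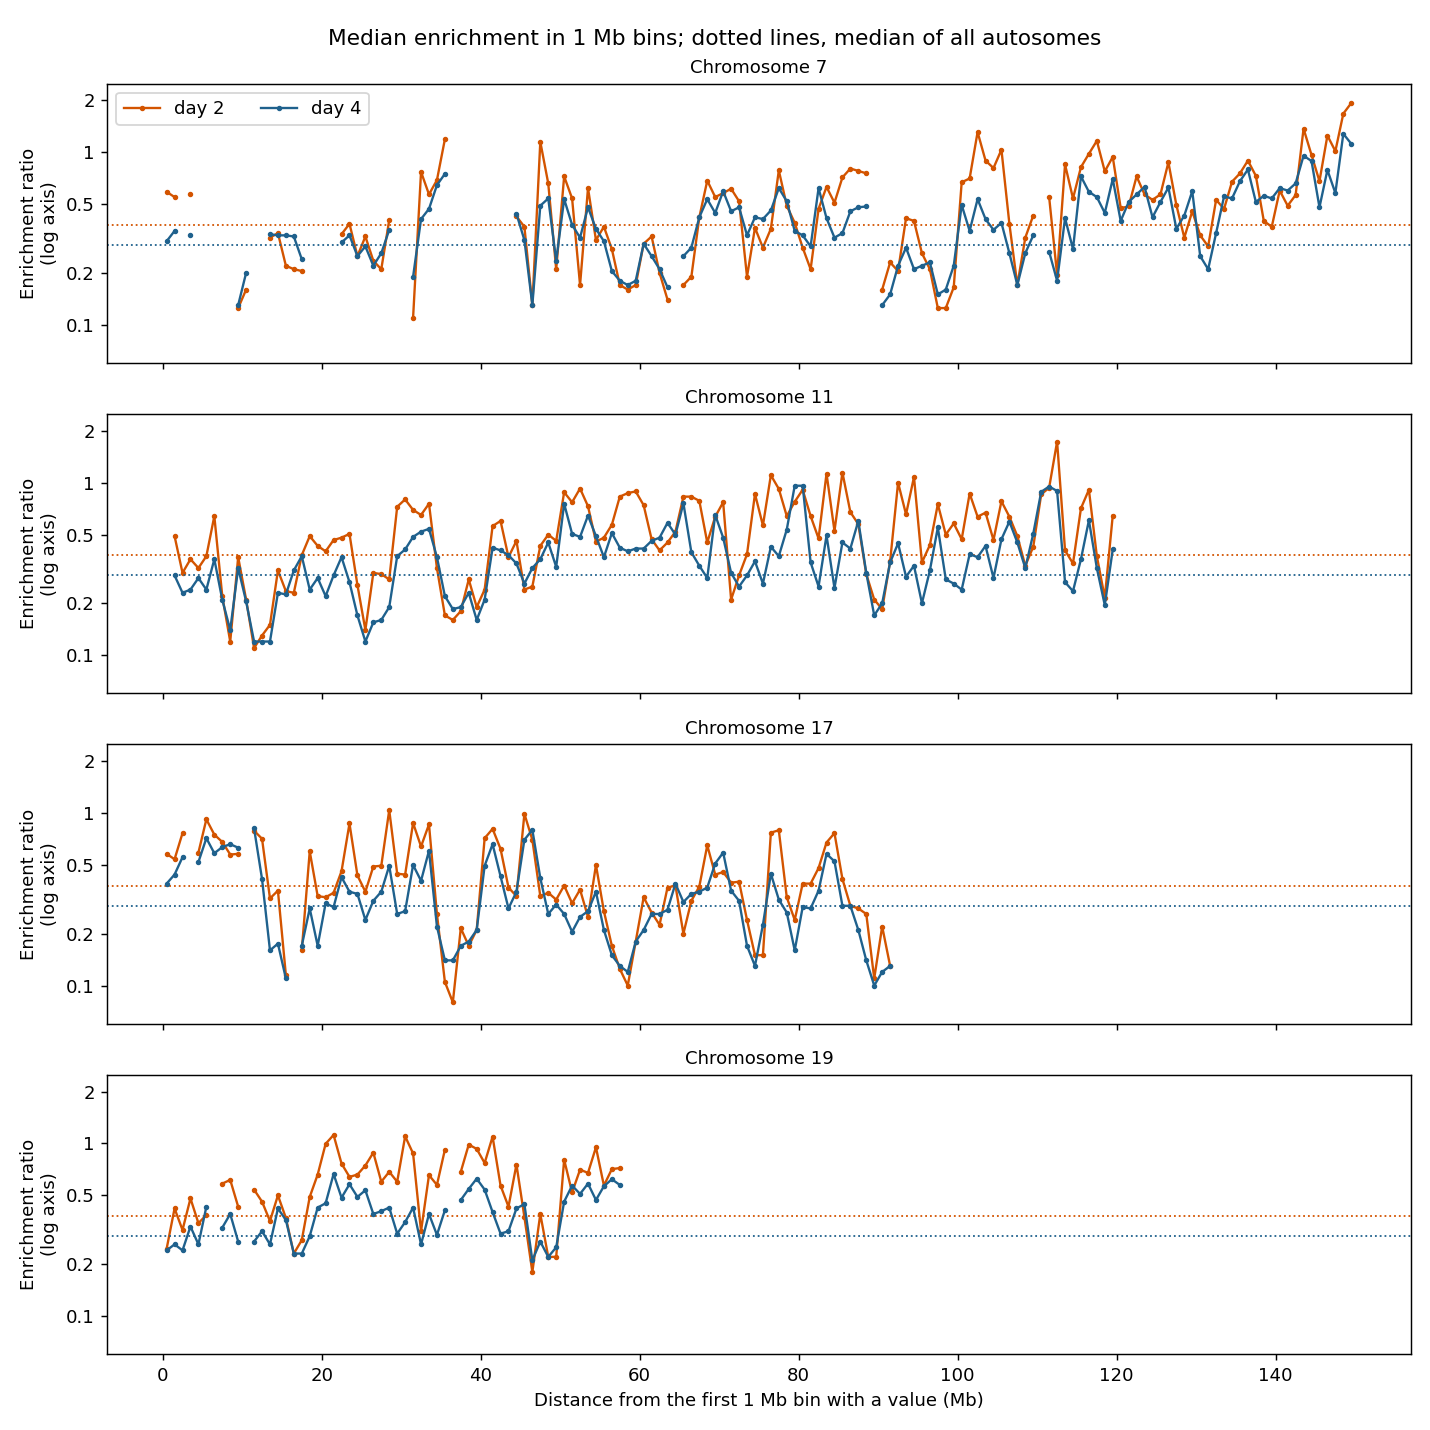
Median enrichment ratio in 1 Mb bins (log axis) along chromosomes 7, 11, 17 and 19, against the distance from the first bin with a value, for day 2 (orange) and day 4 (blue); bins with fewer than 20 of 40 rows are left out and dotted lines mark the medians of all autosomes, 0.38 and 0.29. Chromosome 7 has its highest values at its distal end, and bins of chromosome 17 run from 0.08 to 1.04 on day 2 and from 0.10 to 0.815 on day 4.

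Chromosome 7, whose distal end is known for clusters of imprinted genes such as H19 and Igf2, was higher toward that end. The median was 0.25 on day 2 and 0.28 on day 4 in the first 20 Mb with values (353 windows, since many rows there were flagged). In the last 20 Mb it was 0.66 and 0.61 (798 windows), and 29.8% and 51.3% of these windows were high. From 145 Mb on, the median of 297 windows was 1.14 on day 2 and 0.79 on day 4, and 65.7% and 78.5% were high. The bin from 150 Mb, with 101 windows, had 1.38 and 1.03 and ranked 1 on day 2 and 2 on day 4 among 465 autosomal bins of 5 Mb. The bin from 145 Mb had 0.995 and 0.75 and ranked 9 and 6. These ranks were taken for each day on its own.

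The longest high stretch of chromosome 7, a run of touching high rows, lay at its distal end. On day 2 it reached from 150837501 to 152512276, over 68 rows, with a mean of 1.79 on day 2 and 1.21 on day 4. On day 4 it reached from 150862501 to 152512276, with means of 1.80 and 1.22. The highest window of day 2, at 151937501 to 151962500, had 2.90 on day 2 and 1.64 on day 4. That of day 4, at 151837501 to 151862500, had 1.95 on day 4 and 2.62 on day 2. These summits were broad: rows 500 kb to either side of the day 2 summit still had 1.67 and 1.25 on day 2. Further long stretches lay at 148812501 to 150362500 on day 2 (mean 1.35, and 0.81 on day 4) and at 146112501 to 147687500 on day 4 (mean 0.97, and 1.29 on day 2).

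Low places on chromosome 7 lay away from its distal end. On day 2 the lowest bin of 1 Mb began at 34 Mb, with a median of 0.11 and 0.19 on day 4 (24 windows). On day 4 the lowest value, 0.13, was shared by 3 bins, of which the bin from 12 Mb had 0.125 on day 2. The longest low stretch of day 2, at 100662501 to 101212500, had a mean of 0.11 on day 2 and 0.13 on day 4 over 22 rows. The longest of day 4 was at 94012501 to 94287500, 11 rows with means of 0.12 on day 4 and 0.17 on day 2.

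Chromosome 11 was low near the centromeric end and higher in most bins beyond 50 Mb. The first 20 Mb with values had medians of 0.32 and 0.23, and the last 20 Mb had 0.62 and 0.40. High windows made up 0.258% of the first part on day 2 and 0% on day 4, against 19.8% and 23.5% of the last. The 5 Mb bin from 10 Mb, with 0.15 on both days, was the lowest of the chromosome. A low stretch of 375 kb lay within it on day 2, at 10387501 to 10762500, with means of 0.11 and 0.12. On day 4 the longest low stretch was at 28037501 to 28487500, with 0.11 on day 4 and 0.15 on day 2.

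The longest high stretches of chromosome 11 lay in its last 10 Mb. On day 2 the stretch ran from 113587501 to 114837500, with a mean of 1.55, and 1.004 on day 4. The day 4 stretch ran from 112237501 to 114837500, over 104 rows or 2600.0 kb, with a mean of 0.98 and 1.22 on day 2. It is the longest high stretch of the 4 chromosomes on either day. The next, of 1975 kb, lay on the same chromosome on day 4, at 80587501 to 82562500, with means of 1.002 on day 4 and 0.85 on day 2.

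The highest window of chromosome 11 lay at a different place on each day. On day 2 it was at 96362501 to 96387500, with 2.52, and the same window had 0.59 on day 4. The rows 100 kb away had 2.15 and 2.39 on day 2, and those 500 kb away had 0.29 and 0.66, so the summit was narrow. On day 4 the 0.59 of this window was below the cutoff of 0.60 for a high window. The rows around it then had 0.57 and 0.55 at 100 kb and 0.15 and 0.33 at 500 kb. On day 4 the highest window, at 81562501 to 81587500, had 1.63, against 1.12 on day 2, and stood within the stretch of 1975 kb. Picking the highest window of one day favours a lower value on the other.

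Chromosome 17, which carries the major histocompatibility complex, was divided into blocks. The median of its first 20 Mb with values was 0.55 on day 2 (0.44 on day 4), and that of its last 20 Mb was 0.31 (0.24). High windows made up 9.83% and 27.3% of the first part and 1.88% and 3.51% of the last. The bin from 10 Mb had 0.63 on day 2 and 0.65 on day 4, which ranked 90 and 12 among the 465 bins. The highest window of day 4 lay there, at 14462501 to 14487500, with 1.12 on day 4 and 0.76 on day 2.

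The highest day 2 window of chromosome 17, at 26737501 to 26762500, had 1.93, and 0.42 on day 4. It was narrow, with 1.46 and 0.89 on day 2 at 100 kb and 0.26 and 0.46 at 500 kb. The longest high stretch of day 2 was at 48162501 to 48787500, with means of 1.05 and 0.67, and the longest of day 4 at 48237501 to 49787500, with 0.79 on day 4 and 0.91 on day 2.

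Chromosome 17 also held the longest low stretches of the 4 chromosomes on both days. On day 2 it was at 60687501 to 61987500, 1300.0 kb with a mean of 0.10 on day 2 and 0.12 on day 4. That of day 4 was at 92037501 to 92862500, 825 kb with 0.10 on both days. The lowest bins of 1 Mb were from 39 Mb on day 2, with 0.08 and 0.14 on day 4 (21 windows), and from 92 Mb on day 4, with 0.10 and 0.11 on day 2. The lowest single window of the 4 chromosomes on day 4 was also on chromosome 17, at 60812501 to 60837500, with 0.06.

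Chromosome 19, the shortest mouse autosome, stood above the autosomal median over most of its length. Of its 11 bins of 5 Mb, 10 lay above that median on day 2 and 9 on day 4. The margin was small in some of them: the bins from 15 and 50 Mb had 0.39 on day 2, against 0.38. The first 20 Mb with values had medians of 0.42 and 0.30, the last 20 Mb 0.64 and 0.46, and the part between 0.71 and 0.42. The bin from 40 Mb was the highest on day 2, with 0.94, and had 0.51 on day 4. The bin from 55 Mb was the highest on day 4, with 0.55, and had 0.67 on day 2.

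The longest high stretch of chromosome 19 was at 24287501 to 24987500 on day 2 (means 1.181 and 0.695) and at 24362501 to 24962500 on day 4 (0.725 on day 4 and 1.195 on day 2). The window at 53887501 to 53912500 was its highest, with 2.84 on day 2 and 0.99 on day 4, a value that 1 other window equalled on day 4. Rows 100 kb away had 1.34 and 1.42 on day 2. The lowest bin of 1 Mb was from 49 Mb, with 0.18 on day 2 and 0.21 on day 4. The 1 low window of the chromosome was at 19812501 to 19837500 on day 4, with 0.12.

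The highest bins of 1 Mb were taken for each day on its own. On chromosome 7 the highest bin was from 152 Mb on day 2 (1.93, and 1.12 on day 4; 21 windows) and from 151 Mb on day 4 (1.28, and 1.675 on day 2). On chromosome 11 it was from 114 Mb on day 2 (1.73, and 0.895 on day 4) and from 81 Mb on day 4 (0.96, a value of 2 bins, and 0.775 on day 2). On chromosome 17 it was from 31 Mb on day 2 (1.04, and 0.495 on day 4) and from 14 Mb on day 4 (0.815, and 0.79 on day 2). On chromosome 19 it was from 24 Mb, with 1.12 on day 2 and 0.665 on day 4.

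Single low windows reached similar floors on 3 of the 4 chromosomes. The lowest day 2 value was 0.07 on chromosome 7 (3 windows, one of them at 92687501 to 92712500), 0.08 on chromosome 11 (4 windows, one at 10687501 to 10712500) and 0.07 on chromosome 17 (9 windows, one at 19662501 to 19687500). On day 4 these 3 windows had 0.13, 0.09 and 0.14. The lowest day 4 values were 0.08 on chromosome 7, at 10837501 to 10862500, and 0.07 on chromosome 11, at 13787501 to 13812500 and in 1 other window. On chromosome 19 the lowest day 2 value of 0.14 occurred in 2 windows, one at 19787501 to 19812500.

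On the 4 chromosomes pooled, high stretches were more frequent than on the other 15 autosomes, and low ones less frequent. There were 201 high stretches on day 2 and 229 on day 4, or 13.3 and 15.2 per 1000 windows, against 8.41 and 8.29 on the other 15. Low stretches numbered 114 and 155, or 7.55 and 10.3 per 1000 windows, against 16.9 and 20 per 1000. Chromosome 17 did not share the lower rate on day 4, with 19.2 low stretches per 1000 windows. The rates there were 9.34 on chromosome 7, 9.15 on chromosome 11 and 0.468 on chromosome 19. Median lengths of high stretches on the 4 chromosomes were 150 kb on day 2 and 125 kb on day 4, the same as on the other 15. A smaller share of them was long. On day 2, 22 of 201 reached 500 kb, against 103 of 634 on the other 15, and on day 4, 26 of 229 against 97 of 625. Chromosome 7 was an exception on day 2, with 10 of 51. The others had 8 of 68 (chromosome 11), 1 of 36 (chromosome 17) and 3 of 46 (chromosome 19). Of the low stretches, 57 of 114 on day 2 and 60 of 155 on day 4 touched a flagged row, against 7 and 12 of the high ones. Such contact was also frequent on the other 15 autosomes, with 535 of 1273 low stretches on day 2 and 442 of 1507 on day 4. The day 4 count of high stretches rests in part on 56 runs of 1 row, against 26 on day 2.

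**Figure D3:**
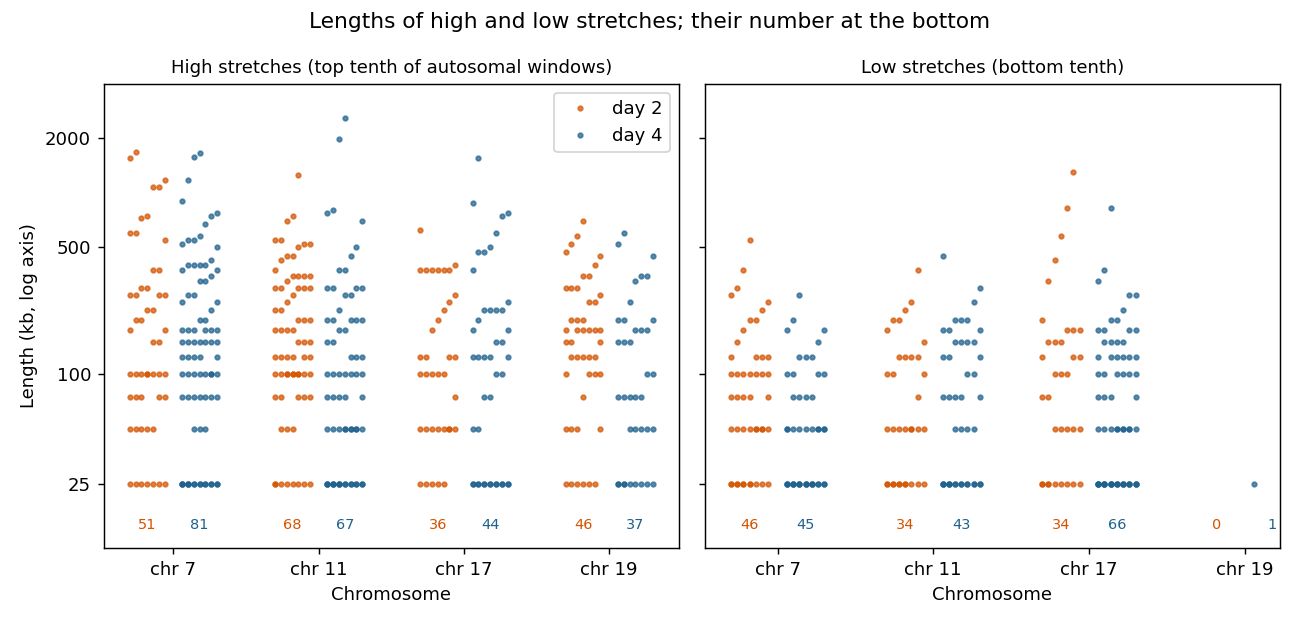
Length (kb, log axis) of each high stretch (left) and low stretch (right) on chromosomes 7, 11, 17 and 19 on day 2 (orange) and day 4 (blue), with the number of stretches under each column. Chromosome 11 has the longest high stretch, 2600.0 kb on day 4, chromosome 17 the longest low one, 1300.0 kb on day 2, and chromosome 19 has 0 and 1 low stretches.

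Levels were lower near flagged rows on all 4 chromosomes. With a flagged row within 500 kb the median was 0.28 on day 2 and 0.25 on day 4 (3375 windows), and without one it was 0.52 and 0.38 (11717 windows). On the other 15 autosomes the same medians were 0.19 and 0.19 near flagged rows and 0.42 and 0.31 away from them. The pooled windows of the 4 chromosomes were therefore above those of the others on both sides of this split. Chromosome 17 by itself was an exception on day 2. Away from flagged rows its median was 0.41 on day 2, below the 0.42 of the other 15. On day 4 it was 0.32, against 0.31.

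The third comparison set day 4 against day 2. The deposited ratio was lower on day 4 over most of the autosomal background. On the 4 chromosomes the median fold of day 4 over day 2 was 0.780, and 24.7% of windows were higher on day 4, against 0.815 and 26.7% on the other 15 autosomes. How the authors scaled the libraries is not stated, so folds were also taken after dividing each day by its autosomal median. On this scale the median log2 of day 4 over day 2 was 0.03 (quartiles -0.36 and 0.39) on the 4 chromosomes and 0.09 (-0.28 and 0.45) on the other 15. The first value is smaller than 1 step of the second decimal in the autosomal median of day 4, 0.05 on this scale, and is not told apart from 0. The groups differed by -0.06, which has no replicate check.

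Single chromosomes differed more than the groups. Chromosome 7 had a median log2 ratio of 0.19, the second highest of the 19 autosomes, after chromosome 8 with 0.23. Chromosome 17 had 0.07 and chromosome 11 had -0.05. Chromosome 19 had -0.17, the lowest of all autosomes, next to chromosome 2 with -0.11. Without scaling, the median folds were 0.871 on chromosome 7, 0.80 on chromosome 17, 0.738 on chromosome 11 and 0.676 on chromosome 19. Chromosomes 19 and 11, lowest in fold, had the highest day 2 medians of the 4, and day 2 is the denominator of the fold. Chromosomes 7 and 17 stood the other way, with day 2 medians of 0.45 and 0.39 and the higher fold on chromosome 7. Whether the denominator shaped the order of the folds was not tested.

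Windows that differed over 1.5-fold on the scaled ratio were counted in each direction. On the 4 chromosomes 2360 windows (15.6%) were higher by this measure, against 16.6% of all autosomal windows, and 2146 (14.2%) were lower, against 10.9%. On chromosome 7, 24.7% were higher and 10.5% lower. On chromosome 19, 6.41% were higher and 20.7% lower. On chromosome 11, 11.7% were higher and 18.7% lower, and on chromosome 17, 14.1% and 9.22%. Higher windows were thus most frequent on chromosome 7, and lower ones on chromosome 19.

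The days differed by region as well. Of the 78 bins of 5 Mb, 47 (60.3%) had a median log2 ratio above 0, against 61.8% of 387 bins on the other 15 autosomes. Without scaling, 9 (11.5%) had a median fold above 1, against 13.4%. Both shares are near those of the other autosomes. Chromosome 7 held 7 of these 9 bins. Its highest ratio was from 75 to 80 Mb, where the medians were 0.32 and 0.41, a median fold of 1.36 without scaling and a log2 ratio of 0.83. Its lowest was from 105 to 110 Mb, where they were 0.92 and 0.38, a fold of 0.435 and a log2 ratio of -0.81. Both bins had all 200 rows with a value, and they were picked as the extremes of the chromosome.

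A log2 ratio as low, -0.82, was measured on chromosome 11 from 75 to 80 Mb, with 0.85 and 0.35. The bin from 35 Mb had the highest log2 ratio of chromosome 11, 0.55, with 0.21 on day 2 and 0.23 on day 4. On chromosome 17 the extremes were 0.48 from 65 Mb (0.32 and 0.31) and -0.56 from 15 Mb (0.355 and 0.17). On chromosome 19 they were 0.24 from 50 Mb (0.39 and 0.30) and -0.47 from 35 Mb (0.58 and 0.33). Over 1.5-fold differences in bin medians occurred in 4 bins upward and 1 downward on chromosome 7 and in 2 downward on chromosome 11, and in 0 on chromosomes 17 and 19. These 4 bins upward (5.13% of 78) and 3 downward (3.85%) compare with 11 (2.84%) and 6 (1.55%) of 387 on the other 15 autosomes.

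**Figure D4:**
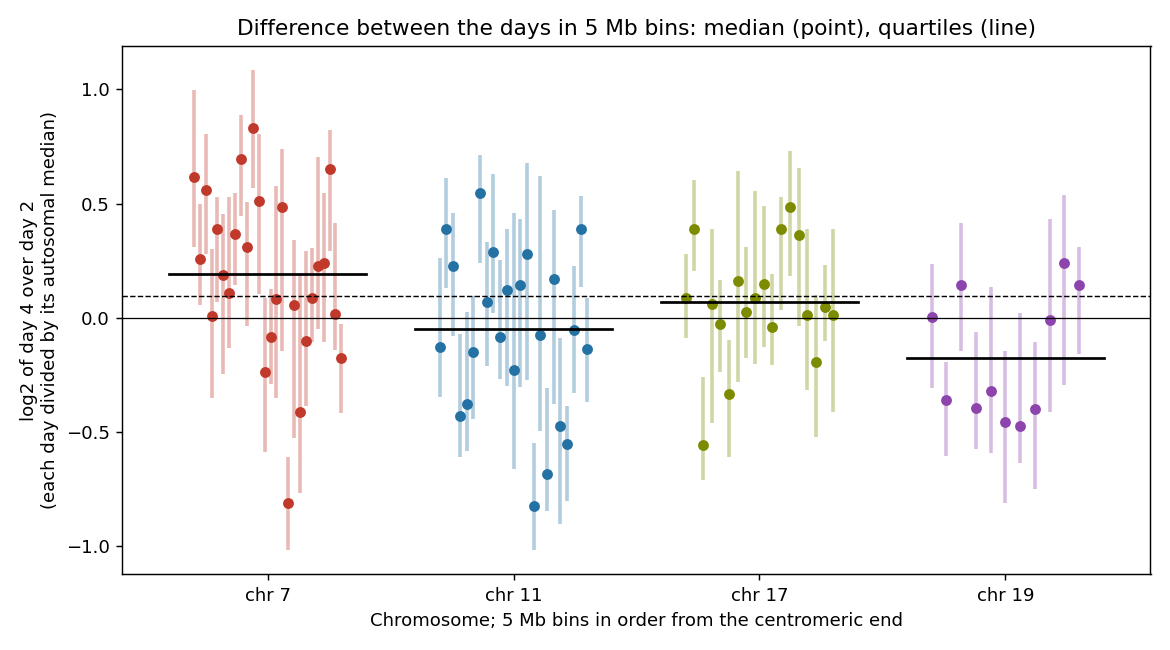
Median (point) and quartiles (line) of the log2 ratio of day 4 over day 2 in 5 Mb bins of chromosomes 7, 11, 17 and 19, in order from the centromeric end, each day divided by its autosomal median; black bars are chromosome medians and the dashed line is the median of the other 15 autosomes, 0.09. Bins of chromosome 7 run from -0.81 to 0.83, and the chromosome median is highest on chromosome 7 and lowest on chromosome 19.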

How the data were processed

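The authors deposited 1 profile per day as enrichment ratios in windows of 100 kb at steps of 25 kb, with a flag of 0 or 1 per row. Bowtie2 2.2.9, Trim Galore 0.4.1, bedtools, Picard and SAMtools 1.2 are listed, with mm9 as the build, per the submitters' processing notes. Their settings, the scaling and the input behind the day 4 ratios are not stated there. A common input would give both days common noise, so places that coincide on the days are given as values only, with no correlation or overlap measure between the days.

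Rows flagged 1 were left out. Medians, percentiles, bins and runs of touching rows were computed in Python 3.11.15 with pandas 2.3.3, numpy 2.4.6 and scipy 1.17.1, with no pseudocount. Regions named are, per chromosome and day, the highest and lowest window, the longest high and low stretch, the highest and lowest 1 Mb bin (at least 20 of 40 rows) and, per chromosome, the 5 Mb bins with the highest and lowest log2 ratio (at least 100 of 200 rows); other places were named after their values were seen, as were the split at 145 Mb and the ends of 20 Mb. Members and rules were chosen with earlier results of these data known. In 20 simulated data sets over 90442 windows the planted log2 difference of the 4 chromosomes came back with a largest error of 0.0017. All planted runs on chromosome 11 were found. These simulations check the computation only. They give no error for the real windows, which overlap and come from 1 library per day.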

Additional observations from a re-analysis of the deposited data

How the results depend on the processing

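Of 120 alternative values for 10 results, 78 stayed within the exact binomial interval of non-overlapping windows (for counts, within 1.5 times). These intervals treat windows of 1 library as independent, and neighbouring ones are correlated, so they are too narrow and serve only to sort the values. The ratio of medians to the other autosomes stayed above 1 throughout, at 1.18 to 1.39 on day 2 and 1.15 to 1.29 on day 4. On day 2 it was 1.24 with flagged rows as 0, 1.18 with means, 1.39 without chromosome 17, 1.22 without chromosome 19, 1.24 without chromosome 3 among the others and 1.24 away from flagged rows. On day 4 it was 1.15 with flagged rows as 0, 1.17 with means, and 1.21 at 1 offset of non-overlapping windows or without chromosome 3. The share of high windows on day 2 was 13.7% without chromosome 17 and 13.1% against the 90th percentile of the other 15. On day 4 it was 14.6% without chromosome 11, 14.2% without chromosome 9 or 6 among the others and 15.1% against the other 15. At the 95th percentile the shares were 5.98% and 6.09%, and at the 75th 31.7% and 34.2%. Leaving out chromosome 7 from 145 Mb on, added after seeing the data, gave ratios of 1.28 and 1.21 and shares of 11.6% and 12.8%.

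The log2 ratio of the days, 0.03, had no stable sign. It was -0.015 at 1 offset, -0.025 without chromosome 7, -0.0065 and -0.017 without chromosomes 9 and 3 among the others, -0.36 without scaling and -0.42 scaled to the mean of all windows. It was 0.068 without chromosome 11 or 19, 0.090 scaled to the autosomal mean and 0.0046 scaled to the other 15. The difference from the other autosomes, -0.06, was -0.12 without chromosome 7 and -0.026 without chromosome 11 or 19. High stretches numbered 112 on both days at the 95th percentile, and 134 on day 4 in runs of at least 4 rows. Low stretches on day 2 numbered 196 with flagged rows as 0, 55 at the 5th percentile, 220 at the percentile of the 4 chromosomes and 53 in runs of at least 4 rows; on day 4 they numbered 100 at the 5th percentile and 58 in runs of at least 4 rows. A stricter percentile or a minimum length gives fewer stretches by construction; the cause of the other changes was not tested. No paired analysis was possible because there is a single library per day. Counting flagged rows as 0 was not run for the log2 ratios, which have no log2 of 0. Rounding to 2 decimals and the unknown depth limit the reading of windows near 0.1.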

Other observations

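Neighbouring places on these chromosomes had similar levels, and the likeness fell with distance up to 5 Mb. Within a library, Spearman's rho between windows 100 kb apart, which do not overlap, was 0.84 to 0.91 over the 4 chromosomes on day 2 and 0.82 to 0.89 on day 4 (516 to 1154 pairs). At 1 Mb it was 0.29 to 0.46 on day 2 and 0.41 to 0.54 on day 4, and at 5 Mb -0.06 to 0.10 and -0.02 to 0.24. Chromosome 7 kept the most likeness at 2 Mb, with 0.34 and 0.42. These are descriptions of 1 library each, in which pairs share depth and input.

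Across the 19 autosomes, Spearman's rho between genes per Mb (RefSeq, assembly GRCm38.p6) and the median enrichment was 0.61 on day 2 and 0.52 on day 4, and Pearson's r was 0.72 on both days. Over the 15 autosomes other than 7, 11, 17 and 19, rho was 0.32 and 0.17, and r was 0.52 and 0.42. The ranks differed for several chromosomes. Chromosome 12 ranked 19 in genes per Mb and 6 and 5 in the median of the days, chromosome 18 ranked 18 and then 6 and 7, and chromosome 17 ranked 4 and then 6 and 7. Chromosomes of a library are not replicates, and no p-value is given.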
